A study of Mus musculus with 4 samples.

Results

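The heat shock protein genes described here are Hspa1a, Hspa1b, Hspa5, Hspa8, Hsp90aa1, Hsp90ab1, Hsph1, Hspb1, Dnaja1 and Dnajb1. They were chosen by gene symbol, and all 10 were found, 1 row each, among the 53379 genes of the table. The RNA came from group 3 innate lymphoid cells (ILC3s) of the small intestinal lamina propria, cells that make IL-22. Bone marrow of 2 donors was mixed in equal numbers of cells and given to sublethally irradiated Rag2-/-Il2rg-/- recipients, which lack lymphocytes of their own. The control donor was Thy1.2 Rag1-/- Smarca4 f/f (Brg1-sufficient). The other was Thy1.1Thy1.2 Rag1-/- Smarca4 f/f with Smarca4, the gene for the chromatin remodeller Brg1, deleted (Brg1-deficient). Both donors thus carried the floxed Smarca4 alleles and lacked Rag1, so neither gave T or B cells. The lamina propria cells were isolated 6 to 7 weeks later, sorted as Thy1.2high CD45low and separated by Thy1.1. Each group had 2 libraries. The labels number them but do not say whether a number stands for 1 recipient, a pool or a shared sort, so that p-values measure the spread between these libraries only. Donor ages were not given in the sources used here.

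Heat shock proteins are chaperones that hold, fold or unfold other proteins. HSP70 proteins bind exposed stretches of a client in cycles of ATP hydrolysis, J-domain proteins bring them clients and start the hydrolysis, HSP110 proteins exchange the nucleotide, HSP90 proteins act late on near-folded clients, and small heat shock proteins hold clients without ATP. Some of the genes are used by every cell at all times, whereas others are induced by heat and other protein damage through the transcription factor HSF1, which binds inverted repeats of a short unit, the heat shock element. Warm enzymatic digestion of a tissue, as used to free lamina propria cells, is known to induce heat shock and immediate early genes. Every library here came from digested tissue, so RNA made during the isolation and RNA present in the intact gut cannot be told apart.

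Sequences upstream of members are shown where they held a match to an element described below. RefSeq windows (GRCm38.p6) were found for 7 of the 10 members, and the 250 bases before each annotated start were searched on both strands for 2 adjoining heat shock units, GAANNTTC or TTCNNGAA, each of which reads the same on the other strand. Hspa1a and Hspa1b had 1 match each, which started 104 bases before the start. Their windows were identical at 247 of 250 positions (98.8%), so only that of Hspa1a is given. It is chr17:34972157-34972406 on the minus strand, with the match in capitals.
Hspa1a: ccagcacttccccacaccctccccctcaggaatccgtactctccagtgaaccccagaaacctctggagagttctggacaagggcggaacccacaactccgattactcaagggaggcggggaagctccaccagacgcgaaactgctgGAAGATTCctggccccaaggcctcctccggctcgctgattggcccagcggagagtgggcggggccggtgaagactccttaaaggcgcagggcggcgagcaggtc
Hspb1 had 2 matches, starting 117 and 97 bases before the start. Its window is chr5:135887669-135887918 on the plus strand.
Hspb1: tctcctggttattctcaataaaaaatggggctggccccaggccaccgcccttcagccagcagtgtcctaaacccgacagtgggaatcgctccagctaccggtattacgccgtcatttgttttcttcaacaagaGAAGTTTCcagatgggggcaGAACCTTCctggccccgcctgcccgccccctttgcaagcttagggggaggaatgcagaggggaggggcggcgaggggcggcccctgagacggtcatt
Hsph1 and Dnaja1 had 1 match each, in chr5:149636351-149636380 (minus strand) and chr4:40722333-40722362 (plus strand), and are shown as short stretches around it. The Dnaja1 match stood in 1 of its 3 windows, and that of Hsph1 in both of its overlapping windows.
Hsph1: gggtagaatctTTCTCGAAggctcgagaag
Dnaja1: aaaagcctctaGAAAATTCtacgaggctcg
Hspa5 had no heat shock match but held an ER stress element, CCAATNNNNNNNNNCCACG, the site through which the unfolded protein response acts on ER chaperone genes. The stretch is chr2:34772020-34772048 on the plus strand, with the element in capitals.
Hspa5: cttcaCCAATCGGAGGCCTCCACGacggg
Neither window of Dnajb1 had a match. Of 32851 mouse windows of the same length, 12.8% held the heat shock motif of 2 units and 0.113% the ER stress element. A stricter motif of 3 such units in a row was found in 0.466% of those windows and in 0 of the members. In the related chaperone and stress lists described further on, 15 of the 88 genes with a window had a heat shock match, and 6 had an ER stress element. Dnaja4, Hspd1 and Hspe1 were among those with a heat shock match. The windows of Hspd1 and Hspe1 overlap and hold the same matches. Bag3, Hspa2 and Cryaa had no match in these 250 bases. A match describes letters in a window and no binding was measured.

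**Figure D1:**
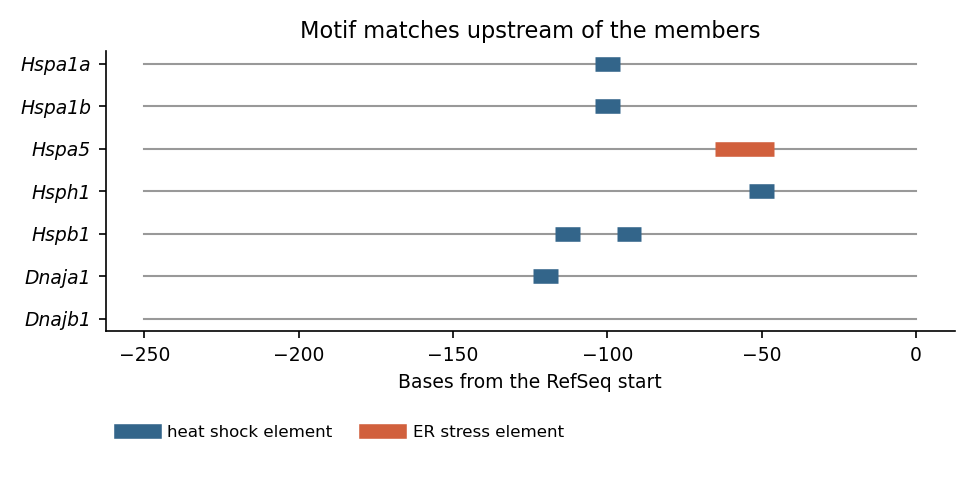
Matches in the 250 bases before the RefSeq start of the 7 members with a window; the horizontal axis is the distance from the start in bases, blue blocks are heat shock matches and the red block is the ER stress element. For Hsph1 and Dnaja1 the window with the farther or only match is drawn, and Dnajb1 is an empty line.

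The values are FPKM, fragments scaled to transcript length and to the size of the library. Levels of different genes can be compared only roughly, since some members share reads with other genes. The sorted values were nearly the same in the 4 libraries. At 13596 of the 13693 ranks whose mean exceeded 1 FPKM (99.3%), the libraries lay within 1% of each other, so that equal values in 2 libraries mean equal ranks and a change in total RNA would not be seen. Read counts were not used here and the depth per library is unknown. Smarca4, the deleted gene, stood at 17.1 and 16.7 FPKM in the controls, and at 9.98 and 9.03 in the deficient pair, or 56.2% of the control mean (limma, adjusted p = 0.153); reads from the deleted part of the gene were not separated. ILC3 markers summed to at least 10097.3 FPKM in every library, with Il7r between 432.95 and 582.73 FPKM. B cell, mast cell, stromal and intestinal epithelial markers were low (summed FPKM at most 1.54, 11.0, 5.61 and 20.4). Markers of ILC1 and NK cells, ILC2s and myeloid cells were higher than these (summed FPKM up to 217.83, 281.75 and 338.35). Of the endothelial markers Pecam1 was present, at 62.25 to 87.92 FPKM, but Cdh5 was at most at 0.29.

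Heat shock RNA was abundant in these sorted cells. Together the 10 members made up 3.55% and 3.48% of the summed FPKM in the Brg1-sufficient libraries and 3.40% and 3.08% in the Brg1-deficient libraries. Hspa8 was the highest member, and ranked 5th of all genes in both Brg1-sufficient libraries. In the control cells it was followed by Hspa1a, Hsp90aa1, Hspa5, Hsp90ab1, Dnajb1, Dnaja1, Hsph1, Hspa1b and Hspb1. Among these neighbours, the library values overlapped between Hsp90aa1 and Hspa5, between Hspa5 and Hsp90ab1, and in no other pair. By the mean of the Brg1-deficient libraries Hspa1a stood below Hspa5 and Hsp90aa1, but the values of these 3 genes overlapped there, and in the second Brg1-deficient library Hspa1a was the highest of them.

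**Figure D2:**
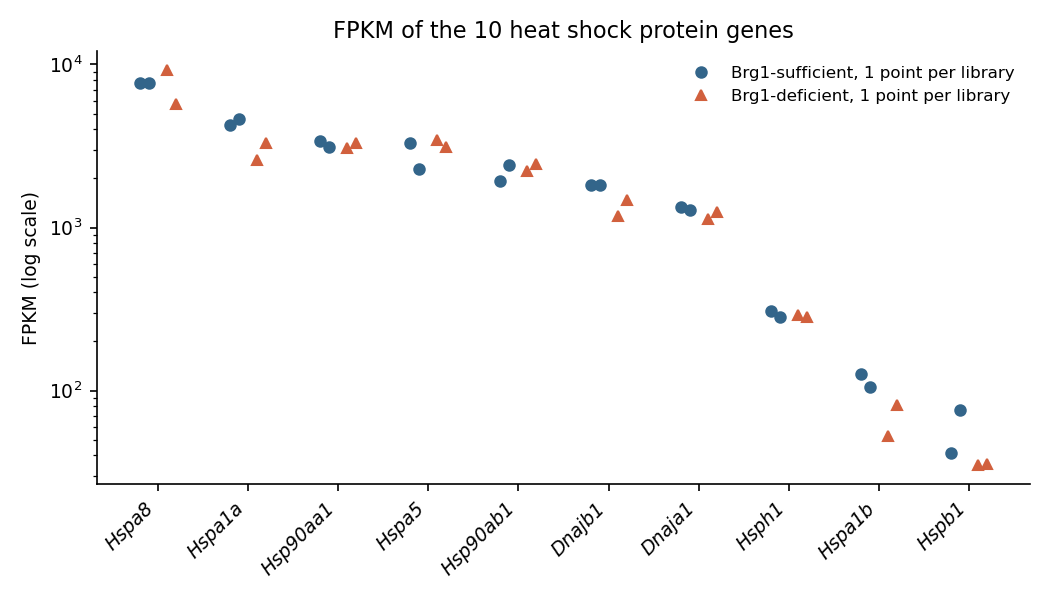
FPKM of the 10 members on a log axis, ordered by the Brg1-sufficient mean, with 1 point per library (circles, Brg1-sufficient; triangles, Brg1-deficient). Both triangles lie below both circles for Hspa1a, Dnajb1, Dnaja1, Hspa1b and Hspb1, and the points of the other 5 members are mixed.

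The comparison of interest was Brg1-deficient against Brg1-sufficient ILC3s. Of the 10 members, 5 (Hspa1a, Hspa1b, Dnajb1, Hspb1 and Dnaja1) were lower in both Brg1-deficient libraries than in either Brg1-sufficient library, and none was higher in both. Over all 14739 genes tested, 20.2% were separated in this way toward lower and 24.4% toward higher values. None of the 10 passed an adjusted p of 0.05 in limma in either direction, while 0.224% of the tested genes passed as lower and 0.0814% as higher. Before adjustment 3 members (Hspa1a, Hspa1b and Dnajb1) were lower at p under 0.05 and 0 were higher, beside 6.47% and 6.12% of all genes tested. Those 3 are not 3 separate measurements, because Hspa1a and Hspa1b share reads, and the count was lower with any 1 library left out. None of those 3 was at p under 0.05 without the first control library, where 1 other member, Hspb1, was. None of the 10 was without the second control library or without the first Brg1-deficient library, and 2 (Hspa1b and Dnajb1) were without the second Brg1-deficient library. With 2 libraries against 2, an exact permutation test of 1 gene cannot give a two-sided p below 0.33. The median log2 fold change (on log2(FPKM + 1), Brg1-deficient minus Brg1-sufficient) was -0.11 over the members and 0.03 over all genes tested.

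**Figure D3:**
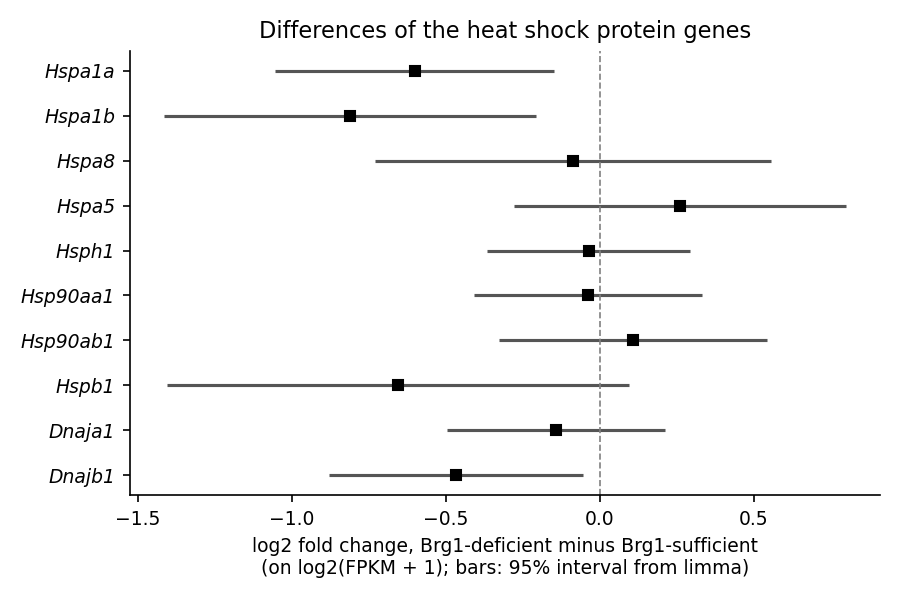
Log2 fold change of each member, Brg1-deficient minus Brg1-sufficient, on log2(FPKM + 1), with 95% intervals from limma before any adjustment (2 libraries per group). The intervals of Hspa1a, Hspa1b and Dnajb1 lie below 0 and the other 7 include it.

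Hspa1a and Hspa1b encode the stress-inducible cytosolic HSP70, in which expression at rest is usually low. Hspa1a reached 4262.49 and 4651.9 FPKM in the 2 control libraries, and 2605.66 and 3306.17 FPKM in the 2 Brg1-deficient ones. The groups did not overlap, and Brg1-deficient cells averaged 66.3% of the control level. This gave a log2 fold change of -0.60 (standard error 0.180, 95% interval -1.05 to -0.15, limma adjusted p = 0.267). Hspa1b was far lower, at 126.52 and 105.58 FPKM against 52.69 and 81.28 FPKM. Its log2 fold change was -0.81 (standard error 0.240, 95% interval -1.41 to -0.21, limma adjusted p = 0.266).

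Both are genes of 1 exon on the minus strand of chromosome 17 (GRCm38), Hspa1a at 34969190 to 34972156 and Hspa1b at 34956436 to 34959238. Their coding sequences were identical at 99.58% of 1923 aligned bases. Of all 50-base words of the Hspa1a transcript, 66.3% also occurred in another gene, and 58.8% occurred in Hspa1b, so that the division of reads between the pair is uncertain. At 90 bases 49.3% of the Hspa1a words occurred in Hspa1b. The ratio of Hspa1a to Hspa1b was 33.7 and 44.1 in the control libraries and 49.5 and 40.7 in the Brg1-deficient libraries, and it overlapped between the groups. Summed, the pair was at 4389.01 and 4757.48 FPKM against 2658.35 and 3387.45 FPKM (log2 fold change -0.61, limma adjusted p = 0.266). Gm20481, which overlaps Hspa1a on the other strand, was listed at 0 in every library.

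Hspa8 (chromosome 9, 40800984 to 40810087, plus strand) encodes the constitutive cytosolic HSP70, which folds new proteins and uncoats clathrin vesicles. It was at 7719.01 FPKM in both control libraries, the same rank in each, while the Brg1-deficient libraries had 9188.76 and 5747.05 FPKM. One Brg1-deficient library was above and the other below the controls (log2 fold change -0.09, 95% interval -0.73 to 0.56, limma adjusted p = 0.912). The processed pseudogene Gm15459 held 34.6% of the 50-base words of Hspa8. It was at 127.55 and 185.99 FPKM in the controls, and at 421.48 and 2278.99 FPKM in Brg1-deficient cells. Its highest value was thus in the library in which Hspa8 was lowest. The 2 rows added gave 7846.56 and 7905 FPKM against 9610.24 and 8026.04 FPKM, with both Brg1-deficient sums above the controls. This sum leaves out Gm26825, which also shares words with Hspa8. Gm26825 was at 1.31 and 18.45 FPKM in the controls and at 56.91 and 892.2 FPKM in Brg1-deficient cells. The sum was formed after the values were seen, and whether reads were divided differently among these genes was not tested. The Hspa1a level relative to Hspa8 was 0.552 and 0.603 in the controls and 0.284 and 0.575 in the Brg1-deficient libraries. The 0.575 belongs to the library in which Gm15459 was highest, and whether the division of reads changed this ratio was not tested. Without the second Brg1-deficient library the Hspa8 difference turned to 0.25 (limma adjusted p = 0.833).

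Hspa5 (chromosome 2, 34771970 to 34777547, plus strand) encodes BiP, the HSP70 of the endoplasmic reticulum, which is induced by the unfolded protein response rather than by HSF1. It was at 3281.89 and 2292.86 FPKM in the controls, and at 3443.96 and 3130.95 FPKM in Brg1-deficient cells, with overlap between the groups. The log2 fold change was 0.26 (95% interval -0.28 to 0.80, limma adjusted p = 0.649), and it was 0.00081 without the second control library. No 50-base word of Hspa5 occurred in another gene. Hsph1 (chromosome 5, 149614287 to 149636376, minus strand) encodes the HSP110 protein HSP105, a nucleotide exchange factor of HSP70 and itself a heat-inducible gene. It had 308.28 and 281.79 FPKM in the controls and 290.75 and 283.97 FPKM in Brg1-deficient cells. The groups overlapped, and its log2 fold change was -0.04 (95% interval -0.36 to 0.29, limma adjusted p = 0.928). Without the first control library its sign turned (0.03).

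Hsp90aa1 (chromosome 12, 110690605 to 110702728, minus strand) and Hsp90ab1 (chromosome 17, 45567775 to 45573271, minus strand) encode the cytosolic HSP90 proteins, the first inducible and the second constitutive. Hsp90aa1 had 3390.37 and 3130.95 FPKM in the controls and 3069.8 and 3281.89 FPKM in Brg1-deficient cells. Hsp90ab1 had 1937.98 and 2420.05 FPKM in the controls and 2220.67 and 2455.03 FPKM in Brg1-deficient cells. The groups overlapped for both. The log2 fold change was -0.04 for Hsp90aa1 (95% interval -0.41 to 0.33, limma adjusted p = 0.935) and 0.11 for Hsp90ab1 (95% interval -0.33 to 0.54, limma adjusted p = 0.825). The sign of either turned when single libraries were left out. The transcribed pseudogene Gm12346 held 41.8% of the 50-base words of Hsp90aa1 but was only at 20.83 to 22.81 FPKM.

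Dnajb1 (chromosome 8, 83608193 to 83612653, plus strand) and Dnaja1 (chromosome 4, 40722150 to 40737149, plus strand) encode J-domain proteins, that is, HSP40 partners of HSP70; Dnajb1 is the more strongly heat-induced of the pair. Dnajb1 was at 1812.35 FPKM in both control libraries, rank 48 in each, and at 1173.21 and 1464.66 FPKM in Brg1-deficient cells. Again the groups did not overlap, and Brg1-deficient cells averaged 72.8% of the controls. Its log2 fold change was -0.47 (standard error 0.164, 95% interval -0.88 to -0.05, limma adjusted p = 0.345). No 90-base word of Dnajb1 occurred in another gene. Dnaja1 was at 1336.41 and 1275.99 FPKM in the controls, and at 1120.54 and 1248.44 FPKM in Brg1-deficient cells. The groups were apart by less than the spread within the Brg1-deficient group (log2 fold change -0.14, 95% interval -0.50 to 0.21, limma adjusted p = 0.705).

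Hspb1 (chromosome 5, 135887919 to 135889563, plus strand) encodes HSP25, a small heat shock protein, and was the lowest member. It was at 41.24 and 76.34 FPKM in the controls, and at 35.15 and 35.49 FPKM in Brg1-deficient cells. Nearly all of the spread lay in the controls (SD 24.8 FPKM against 0.240 FPKM), where the second library had the high value. The log2 fold change was -0.65 (95% interval -1.40 to 0.09, limma adjusted p = 0.456) and was -0.22 without the second control library. The pseudogene Hsp25-ps1 held 48.8% of its 50-base words and was at 3.67 and 9.17 FPKM in the controls, and at 0.28 and 4.69 FPKM in Brg1-deficient cells. Myeloid markers summed to 153.44 and 338.35 FPKM in the first and second control libraries, and to 112.25 and 301.21 FPKM in the first and second Brg1-deficient libraries. They were thus higher in the second library of both groups, whereas Hspb1 was so in the controls only and was nearly equal in the Brg1-deficient pair. The part of myeloid cells in the Hspb1 values was not tested.

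Other genes of the heat shock response and of protein folding were taken as lists. Of 110 such genes, 101 were tested; none passed an adjusted p of 0.05 in limma, 9 were lower and 1 higher before adjustment at p under 0.05, beside 6.47% and 6.12% of all genes tested. Of the 101, 24 were separated toward lower and 15 toward higher values, beside 20.2% and 24.4% of all genes tested. Their median log2 fold change was -0.01, beside 0.03 for all genes tested. The 9 included Hspa2, an HSP70 best known from the testis, Bag3, a nucleotide exchange factor that links HSP70 with small heat shock proteins, Cryaa, a small heat shock protein of the lens, and the J-domain genes Dnajc12 and Dnaja4.

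Hspa2 had the largest fold difference of these. It was at 26.39 and 21.01 FPKM in the controls, and at 7.4 and 7.17 FPKM in Brg1-deficient cells (log2 fold change -1.57, standard error 0.185, limma adjusted p = 0.0610). It passed when only genes with a mean FPKM above 5, and so fewer genes, were tested (limma adjusted p = 0.0294). It did not pass without the filter or without the trend (limma adjusted p = 0.155 and 0.126). Bag3 was at 78.33 and 92.98 FPKM against 35.04 and 43.67 FPKM (log2 fold change -1.11, limma adjusted p = 0.0995). Both Brg1-deficient libraries of each gene lay well below the controls. Dnajc12 was at 9.77 and 8.45 FPKM against 3.02 and 2.99 FPKM (log2 fold change -1.33, limma adjusted p = 0.0917). Cryaa was at 146.47 and 106.44 FPKM against 76.23 and 45.91 FPKM (log2 fold change -1.06, limma adjusted p = 0.236). Dnaja4, an HSP40 that is induced by heat, was at 40.01 and 26.8 FPKM against 15.76 and 20.88 FPKM (log2 fold change -0.82, limma adjusted p = 0.284). The J-domain list went both ways, since Dnajc10, an ER disulfide reductase, was at 18.7 and 31.78 FPKM against 44.66 and 48.26 FPKM (log2 fold change 0.90, limma adjusted p = 0.265).

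By list, where the same 20.2% (lower) and 24.4% (higher) of all genes tested are the background, 1 of the 8 tested HSP70 and HSP110 genes was separated toward lower values (Hspa2) and 2 toward higher (Hspa4 at 0.16 and Hspa14 at 0.22 on the log2 scale). Of the 37 tested J-domain genes, 8 were separated toward lower and 7 toward higher values. Among 10 chaperonin genes, whose products form the folding chambers of the cytosol and mitochondria, 2 were separated each way; Cct6a was at 224.67 and 184.35 FPKM against 140.76 and 117.97 FPKM (-0.66), while Cct8 (0.27) and Tcp1 (0.17) lay higher. Of 22 co-chaperones, 6 were separated toward lower values, among them Bag3, Bag4 (-0.61) and Ptges3 (-0.34), and 1 toward higher. Of 21 ER chaperone and unfolded protein response genes, 6 lay lower, such as Edem1 (-0.65, and -0.99 to -0.30 with each library left out) and Pdia6 (-0.30), and 2 higher, Atf4 (0.34) and Hsp90b1 (0.25, and 0.028 to 0.48 with each library left out), the ER form of HSP90. The transcription factor genes showed small differences: Hsf1 was at 53.16 and 52.42 FPKM against 60.95 and 58.16 FPKM, and Hsf2 at 15.15 and 9.68 FPKM against 9.42 and 8.39 FPKM. Neither passed the test (limma adjusted p = 0.634 and 0.574).

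**Figure D4:**
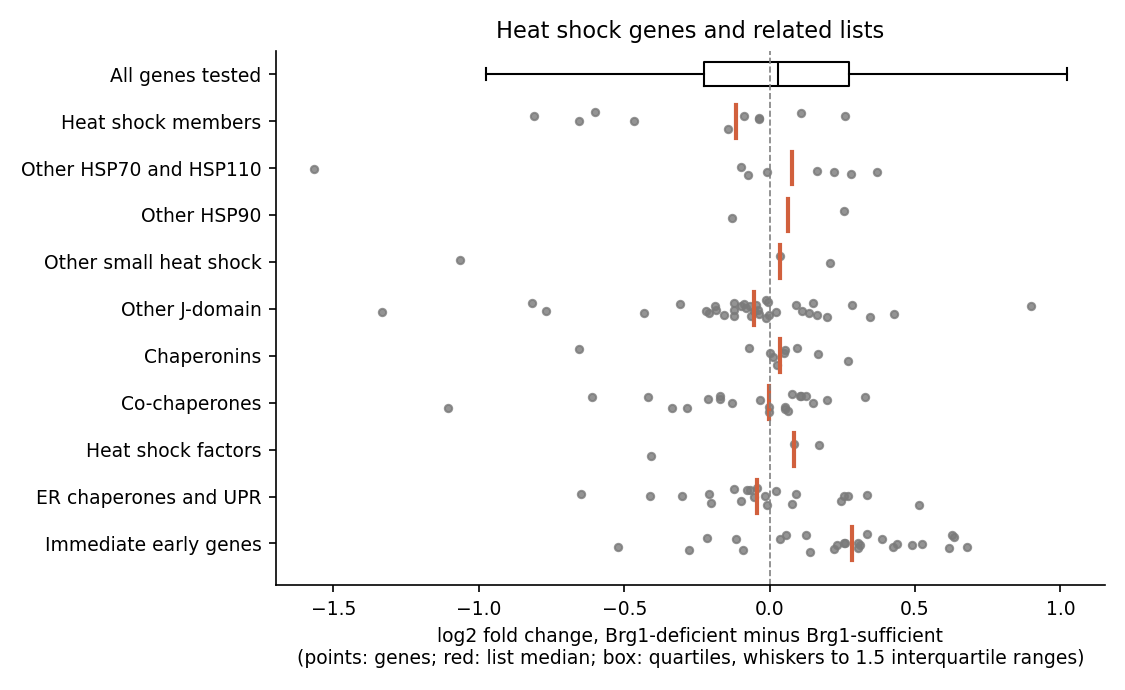
Log2 fold change of every tested gene in each list (points, with red list medians) below a box of all genes tested, on log2(FPKM + 1). The member median is -0.11, that of the immediate early genes is 0.28, and the other list medians lie between -0.05 and 0.08.

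Immediate early genes are, like heat shock genes, known to be induced during tissue isolation, and they were taken as a list of their own. All 26 were tested and none passed an adjusted p of 0.05 in limma; 4 were higher (Egr2, Atf3, Nfkbia and Ppp1r15a) and 0 lower before adjustment at p under 0.05, beside 6.12% and 6.47% of all genes tested. They were separated toward higher values in 13 cases, where 24.4% of all genes tested were, and toward lower values in 1, where 20.2% were (Jund, 60.31 and 35.17 FPKM against 30.98 and 32.68 FPKM, with a log2 fold change of -0.90 to -0.14 with each library left out). The median log2 fold change was 0.28, and it was between 0.21 and 0.32 with each library left out. Nfkbia, which encodes the NF-κB inhibitor IκBα, was at 4831.02 and 4924.38 FPKM against 6828.03 and 7209.64 FPKM (log2 fold change 0.52, limma adjusted p = 0.251). Fosb was at 327.02 and 582.73 FPKM against 729.3 and 625.71 FPKM (0.63, and 0.21 to 1.04 with each library left out), and Atf3, a stress-induced repressor, at 512.47 and 632.79 FPKM against 902.96 and 709.56 FPKM (0.49). Egr2 (0.63) and Klf2 (0.62) were lower in level, between 7.22 and 17.58 FPKM. The Fos and Jun transcripts themselves overlapped between the groups, Fos at 2122.43 and 3390.37 FPKM against 2545.18 and 4026.4 FPKM.

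**Figure D5:**
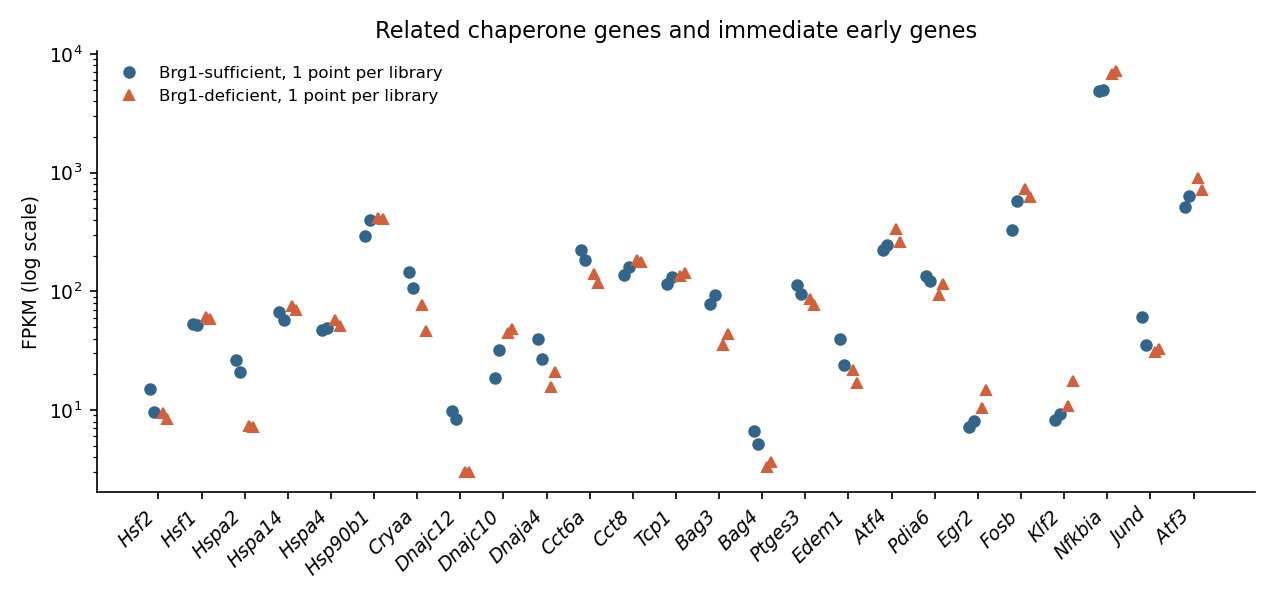
FPKM on a log axis of the related and immediate early genes named by rule, with 1 point per library (circles, Brg1-sufficient; triangles, Brg1-deficient). By that rule the groups do not overlap for any gene drawn; Hspa2, Bag3 and Dnajc12 show the widest gaps.

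Some cell type markers differed between the groups as well, while 6 of the 7 myeloid markers tested overlapped. ILC2 markers summed to 281.75 and 182.5 FPKM in the controls and to 93.28 and 119.25 FPKM in the Brg1-deficient libraries, and all 5 that were tested were separated toward lower values. Klrg1 was at 42.15 and 11.04 FPKM against 1.64 and 2.19 FPKM, and Il5 at 24.76 and 1.64 FPKM against 0.32 and 0.06 FPKM, both highest in the first control library. ILC1 and NK cell markers summed to 100.32 and 217.83 FPKM against 84.61 and 50.62 FPKM, and Ncr1, the gene for NKp46 on a subset of ILC3s, was at 31.32 and 35.54 FPKM against 5.37 and 6.02 FPKM (limma adjusted p = 0.0330). Ncr1 was taken from 12 ILC3 markers, of which 4 were separated toward lower values, 2 toward higher and 6 overlapped. Of all genes tested, 20.2% and 24.4% were separated toward lower and higher values. The ILC3 markers summed to 10097.3 and 12442.1 FPKM against 23224.7 and 12440.0 FPKM. The epithelial keratin gene Krt18 was at 2.02 and 3.48 FPKM against 15.72 and 12.92 FPKM, while Epcam was at 0.54 to 1.79 and Vil1 at 0.18 to 0.38 FPKM. Of the 3 epithelial markers tested, 2 were separated toward higher values and 1 toward lower. In bulk RNA a smaller share of cells that use a gene and less RNA of it per cell cannot be told apart. The part of these differences in cell makeup in the heat shock values was not tested.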

How the data were processed

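Reads were mapped by the authors with STAR v2.5 to GRCm38.p5 and quantified with RSEM v1.2 (submitters' processing notes). The paper gives GENCODE M16 as the annotation. The deposited values are FPKM per gene and library. Their sorted values nearly match across libraries, a step not given in the sources used here. Reads were single-end, and their length and strand setting could not be settled from the sources, so that shared words were counted at 50 and 90 bases. Groups were compared with limma 3.58.1 (lmFit, eBayes with trend) in R 4.3.3 on log2(FPKM + 1), on the 14739 genes whose mean exceeded 1 FPKM in at least one of the groups, with Benjamini-Hochberg adjustment over all of them. Fold changes on this scale understate those of low genes. The script was tested on simulated data. Read depth is unknown, so no counting interval was computed.

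The members and the lists were chosen with earlier results of these data known. All 10 members are named. From each list the genes at an adjusted p under 0.05 are named, otherwise up to 3 (6 for the immediate early list) with the largest log2 fold change among those that did not overlap and had a mean FPKM above 5. Fos, marker genes and genes that share reads were chosen after their values were seen. Library numbers are shared between the groups in the labels, but nothing says that they pair the libraries. Motifs were searched in RefSeq windows, and gene positions, transcripts and coding sequences came from GENCODE M21. Alternatives were a pseudocount of 0.1, no filter, a mean FPKM above 5, no trend, the replicate number as a block, a TPM scale, quantile normalization and leaving out each library. ATAC-seq was not analysed here. One element of the donor genotype and 1 marker gene are not reported here.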

Additional observations from a re-analysis of the deposited data

How the results depend on the processing

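No member passed an adjusted p of 0.05 under any alternative that kept every library. In the 70 values of members from those alternatives no direction turned, but most of these settings could not turn one. The filter, the trend and the block leave the fold change of a gene as it is. The sorted values nearly matched before the TPM scale and quantile normalization were applied. The number of members lower at an unadjusted p under 0.05, an alternative count added after the data were seen, was 3, between 0 and 2 with a library left out, 2 without the trend (Dnajb1 was lost) and 4 with the replicate block (Hspb1 was added). Hspa1a and Hspa1b summed stayed between -0.78 and -0.43 in those settings. With each library left out in turn, direction turned for 4 members: Hspa8 ranged from -0.43 to 0.25 (higher without the second Brg1-deficient library), Hsp90aa1 from -0.095 to 0.020 (higher without the first library of either group), Hsp90ab1 from -0.052 to 0.27 and Hsph1 from -0.10 to 0.028 (both turned without the first control library). Hspa5 ranged from 0.00081 to 0.52, Hspb1 from -1.09 to -0.22, Hspa1b from -1.12 to -0.50 and Dnajb1 from -0.63 to -0.31. The cause was not tested. The 25 related genes named could not turn direction with a library left out, because the naming rule took only genes whose groups did not overlap. Their sizes moved by over 1.5 times for some, such as Hsf2 (-0.71 to -0.11), Klf2 (0.29 to 0.94) and Atf4 (0.14 to 0.53). Over all genes 33 were called lower and 12 higher. These counts were 0 and 0 without the filter, without the trend and with any library left out, 73 and 41 for a mean FPKM above 5, while a replicate block gave 248 and 150. With the block 4 genes of the related lists passed (Hspa2, Bag3, Cryaa and Dnajc12), and 1 (Hspa2) for a mean FPKM above 5. The block has only 2 pairs, and libraries that share a number did not deviate together from the mean of their group (r = -0.00039), so the number is not shown to pair them. It changed no call of a member at the adjusted threshold. Read depth is unknown, so its share in the spread between libraries could not be given.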
